A study of Mus musculus with 6 samples.

Results

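The 9 genes described here act at the brake and the engine of the G1 phase of the cell cycle. They were chosen by gene symbol, with earlier results of these data known, so shares of them set beside all genes are descriptions. They are the CDK inhibitors Cdkn1b, Cdkn2c and Cdkn2d, the D-type cyclins Ccnd2 and Ccnd3 and the pocket protein gene Rbl2. The others are cyclin G2 (Ccng2) and the kinases Cdk2 and Cdk6. All 9 were found, each as 1 identifier, among the 54838 gene identifiers of the count table. Their RNA was measured in 6 poly A libraries of primary mouse B cells: 3 libraries from cultures with the solvent DMSO and 3 from cultures with Cpd10, a compound that the labels call an inhibitor of FOXO1. All cells came from male mice aged 3 months, 9 days after immunisation with SRBC. Naive splenic B cells of 10 mice, sorted in 2 experiments, were pooled and then cultured for 5 days with 80 ng/ml IL-4 and 5 µg/ml anti-CD40, so both groups were activated cells. The final 48 h, from day 3 to day 5, were spent in DMSO or in 1 µM Cpd10. In bulk RNA such as this, fewer cells of a type and less RNA per cell cannot be told apart. Because the cells were pooled, the libraries are not separate mice, and the labels do not say what the replicate letters A, B and C stand for. The p-values therefore measure only the spread between libraries, which may be technical.

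D-type cyclins bind CDK4 and CDK6, and cyclin E binds CDK2. These kinases phosphorylate the retinoblastoma family of pocket proteins, which releases E2F factors to transcribe the genes of S phase. The INK4 inhibitors p18 (Cdkn2c) and p19 (Cdkn2d) block CDK4 and CDK6, whereas p27 (Cdkn1b) also blocks CDK2. In other cells, FOXO factors, when PI3K signalling is low, are known to activate Cdkn1b, Rbl2, Ccng2 and Cdkn2d and to repress Ccnd2. Cyclin D2 is the main D-type cyclin that B cells induce on antigen receptor stimulation, and cyclin D3 is needed by dividing germinal centre B cells.

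Total counts ran from 36873204 to 44859930 per library, and the lowest count of any of the 9 genes in any library was 569. The libraries fell into sets that the labels do not name and that cross the treatment: DMSO A, DMSO C and Cpd10 A in set 1, and the other 3 libraries in set 2. These sets were taken from the counts, because 9 genes had at most 3 counts in each library of one set and at least 50 in each library of the other. Ribosomal protein genes held 6.08% to 6.52% of counts in set 1 and 9.83% to 11.0% in set 2. Whether the sets are a batch is not known, so the fold changes of the 9 genes are given without and with the set as a term. The B cell marker Cd79a was at 738 ± 87.9 CPM with DMSO and 734 ± 121 CPM with Cpd10 (SD, n = 3 libraries each), where CPM is the count scaled by the TMM-normalised library size. Among further B cell markers, Cd79b (909 and 1040 CPM), Pax5 (530 and 473 CPM) and Cd22 (590 and 530 CPM) had an unadjusted p above 0.05. Ms4a1 was at 461 ± 160 and 294 ± 21.2 CPM, with a log2 fold change of -0.65 (unadjusted p 0.0385, adjusted p 0.560 in edgeR). Its groups overlapped, with DMSO B at 277 CPM below each Cpd10 library. With the set as a term the Ms4a1 value was -0.39 (adjusted p 0.387 in edgeR). The T cell genes Cd3d, Cd3e, Cd3g, Cd4 and Cd8a had at most 14 counts in any library, and Ncr1, S100a8 and Col3a1 had none. Other genes of those marker lists were measured. With the set as a term 3 of them were called lower with Cpd10 in edgeR, where 248 of all 15136 genes were. They were Lck at -0.76 (adjusted p 0.00216), the macrophage gene Adgre1 at -0.80 (adjusted p 0.0252) and the endothelial gene Pecam1 at -1.43 (adjusted p 0.0356). They were called in 5, 2 and 2 of the 6 fits that also left out a library. Without Cpd10 A or DMSO B, 1 set holds only 1 group, so such a fit compares the groups within the other set alone. Of the same lists as Adgre1 and Pecam1, Lyz2, Csf1r, Cd14, Col1a1 and Kdr had at most 12 counts in any library. Itgam and Cdh5 had at most 36 and 61.

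None of the 9 genes passed the test between Cpd10 and DMSO. In edgeR's quasi-likelihood test over 15136 genes, with Benjamini-Hochberg adjustment, 0 of 9 had an adjusted p under 0.05, against 56 (0.370%) of all genes tested. At an unadjusted p under 0.05, 2 of the 9 genes stood out, Cdkn1b and Cdkn2d, both higher with Cpd10, against 8.39% of all genes tested. With the library set as a term 0 of 9 were called against a background of 3.96%, and the unadjusted p was under 0.05 for Cdkn1b, Cdkn2d and Cdkn2c, against 16.0% of all genes in that fit. By DESeq2 the count was again 0 of 9, against 2.00% of the 17783 genes with an adjusted p. The median log2 fold change of the 9 genes was 0.0099, beside -0.0012 for all genes tested, and 6 of the 9 values were above 0. Their median size, sign ignored, was 0.19, beside 0.19 for all genes. The standard errors (SE) of their log2 fold changes ran from 0.093 to 0.25, with a median of 0.15 beside 0.21 for all genes.

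**Figure D1:**
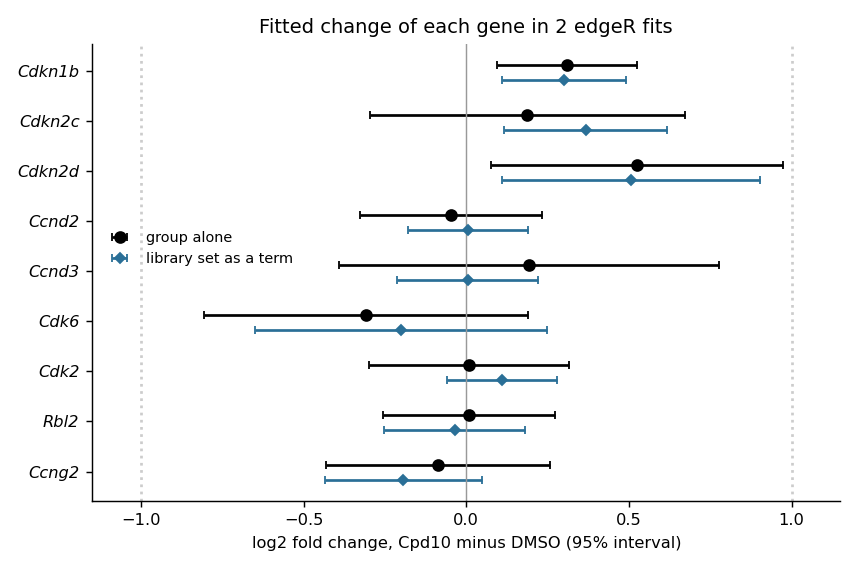
Log2 fold change (Cpd10 minus DMSO) of each of the 9 genes with its 95% confidence interval, with the group as the only term and with the library set as a further term. The intervals of Cdkn1b and Cdkn2d lie above 0 in both fits, and that of Cdkn2c lies above 0 with the set term.

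The intervals bound a change only by the spread between libraries, which may be technical. With all 6 libraries, the highest upper bound among the 9 genes was 1.97-fold, for Cdkn2d, and the lowest lower bound was 0.572-fold, for Cdk6, so a 2-fold change in either direction lay outside the 95% interval of each gene. That statement rests on all 6 libraries. Without DMSO C the upper bound of Cdkn2d was 2.23-fold. A 2-fold change lay inside the interval of 1 gene in 5 of the 6 fits that left out a library. The exception was the fit without DMSO A. With the set term as well, a 2-fold change lay inside an interval in each such fit except those without Cpd10 B or DMSO A.

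Among the CDK inhibitors, Cdkn1b and Cdkn2d were higher in each Cpd10 library than in any DMSO library, and Cdkn2c was not, although none of them passed the test. Cdkn1b, which encodes p27 (chromosome 6, 134920401 to 134925513, plus strand, GRCm38), was at 83.4, 93.4 and 98.4 CPM in DMSO A, B and C and at 113, 114 and 114 CPM in Cpd10 A, B and C. Each Cpd10 library lay above each DMSO library, and the spread among the Cpd10 libraries was small in CPM. Scaled by exon length, as below, the SD was 2.80 with Cpd10 and 0.434 with DMSO. The means were 91.8 ± 7.62 and 114 ± 0.751 CPM (SD, n = 3 each), a fold of 1.24 with a 95% interval of 1.07 to 1.44. The log2 fold change was 0.31 (SE 0.093), with an adjusted p of 0.356 in edgeR. With the set as a term it was 0.30 with an adjusted p of 0.0863, and within set 1 and set 2 the differences in log2 CPM were 0.32 and 0.29.

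Cdkn2d, which encodes the INK4 inhibitor p19 (chromosome 9, 21288410 to 21291407, minus strand), was at 12.7, 18.9 and 20.97 CPM with DMSO and at 25.5, 26.5 and 23.7 CPM with Cpd10. Here too the groups did not overlap, and DMSO A was the lowest library. The means were 17.5 ± 4.28 and 25.2 ± 1.44 CPM, and the fold was 1.44 with an interval of 1.06 to 1.97. The log2 fold change of 0.53 (SE 0.19) had an adjusted p of 0.507 in edgeR, and with the set as a term 0.51 had an adjusted p of 0.1804. Groups whose 3 libraries all lay above those of the other occurred for 2 of the 9 genes, against 14.6% of all genes tested, and with Cpd10 higher for the same 2, against 7.31%. The fits that combined the set term with leaving out a library called none of the 9 genes, except the fit without DMSO C, which called Cdkn1b at 0.36 (adjusted p 0.0288) and Cdkn2d at 0.67 (adjusted p 0.0331) in edgeR, 2 of 9 against 3.95% of all genes in that fit.

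Cdkn2c, which encodes p18 (chromosome 4, 109660876 to 109667189, minus strand), was at 32.1, 23.0 and 37.1 CPM with DMSO and at 42.3, 33.7 and 29.0 CPM with Cpd10. The groups overlapped, with means of 30.7 ± 7.12 and 35.0 ± 6.74 CPM. Its log2 fold change of 0.19 (SE 0.21) had an adjusted p of 0.890 in edgeR. With the set as a term the value was 0.37 with an interval of 0.12 to 0.62 and an adjusted p of 0.113, and within set 1 and set 2 the differences were 0.29 and 0.44. Without the set term the value was 0.018 without DMSO B and 0.037 without Cpd10 A. The lowest library, DMSO B, and the lowest of the Cpd10 libraries, Cpd10 C, both belong to set 2.

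**Figure D2:**
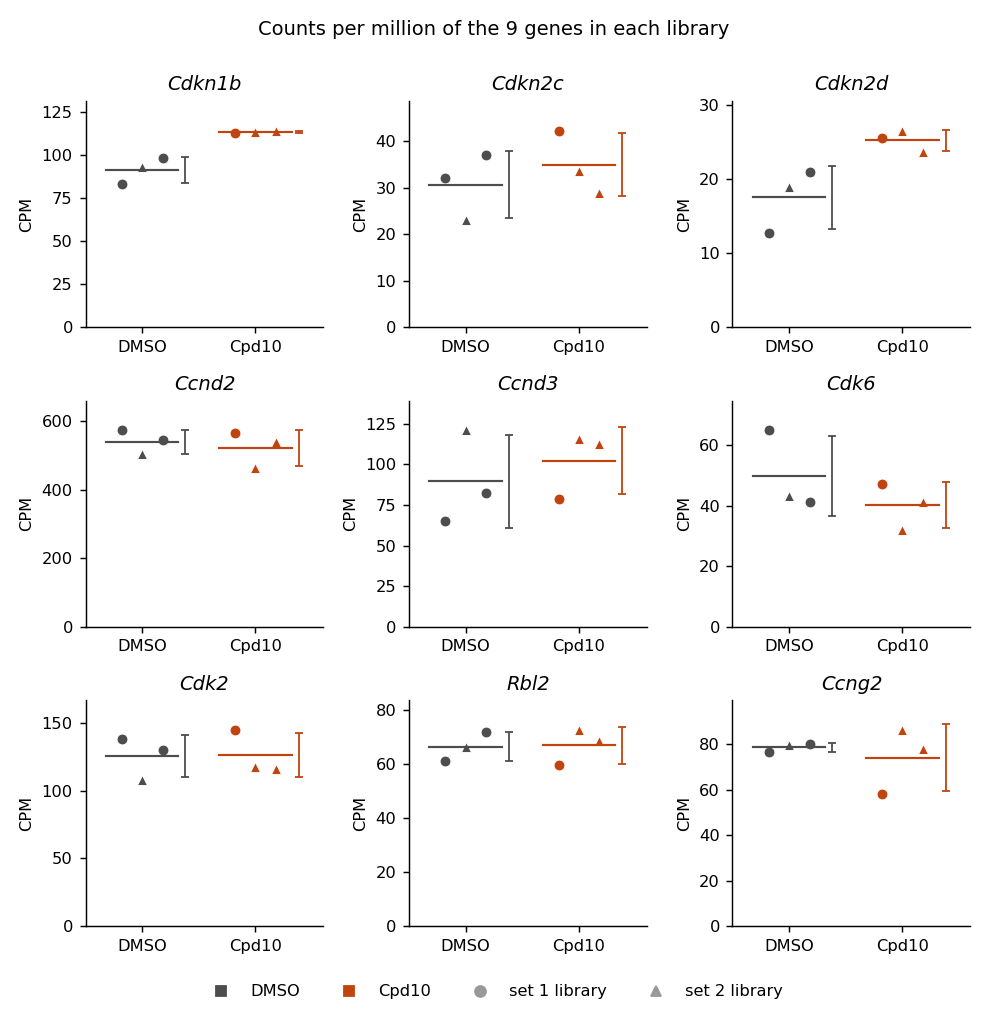
CPM of each of the 9 genes in each library, with DMSO and Cpd10 side by side, a line at the mean, a bar of 1 SD to each side (n = 3) and circles for set 1 and triangles for set 2. The Cpd10 libraries lie above the DMSO libraries for Cdkn1b and Cdkn2d, whereas Ccnd3, Cdk2 and, narrowly, Ccnd2 separate by library set.

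Upstream sequence is shown for the inhibitors whose groups did not overlap and for the genes whose window held a FOXO or E2F motif. RefSeq windows for GRCm38.p6, from 250 bases before to 50 after a start, were found for 8 of the 9 genes, all but Ccnd2, in 10 windows. Each window was searched on both strands for GTAAACA (a FOXO core, in 3.65% of all 32851 windows), CAAAACA (an insulin response element, 6.28%), TTCCCGC (an E2F core, 4.6%) and TTTGAA (the CHR, 17.9%). GTAAACA and CAAAACA share their last 5 letters, and no match in these genes overlapped another. The bases before the start that no annotated exon covers are printed in the gene's direction, and a match that lies in an annotated exon is printed with the bases around it, 30 in all. Capitals mark the motif matches, 5′ to 3′.
Cdkn1b, chr6:134920151-134920400, plus strand: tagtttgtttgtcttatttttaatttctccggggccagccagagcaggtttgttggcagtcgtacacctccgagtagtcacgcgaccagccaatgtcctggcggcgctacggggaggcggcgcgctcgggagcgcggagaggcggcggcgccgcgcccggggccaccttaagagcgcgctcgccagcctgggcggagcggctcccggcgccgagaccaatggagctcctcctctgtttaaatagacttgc
Cdkn2d, chr9:21291408-21291459, minus strand: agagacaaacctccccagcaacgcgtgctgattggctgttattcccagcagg
Cdkn2c, chr4:109666764-109666793, minus strand: cggggcccggccTTCCCGCtcccgcggcgc
Ccnd3, chr17:47504801-47505050, plus strand: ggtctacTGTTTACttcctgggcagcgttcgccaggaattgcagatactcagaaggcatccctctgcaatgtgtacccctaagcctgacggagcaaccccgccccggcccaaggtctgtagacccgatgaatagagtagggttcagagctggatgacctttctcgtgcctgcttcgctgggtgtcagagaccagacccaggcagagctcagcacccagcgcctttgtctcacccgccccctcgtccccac
Ccng2, chr5:93267545-93267574, plus strand: gcgtcgcagactCAAAACAaaaacaagggg
Cdk2, chr10:128705052-128705179, minus strand: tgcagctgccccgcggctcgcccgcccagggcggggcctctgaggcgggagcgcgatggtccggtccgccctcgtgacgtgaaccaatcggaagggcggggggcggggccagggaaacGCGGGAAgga
Cdk2 further upstream, chr10:128705174-128705203, minus strand: aaaccaggaactGCGGGAAagttgtgcagc
Cdkn1b and Cdkn2d held none of the 4 motifs in their windows, nor did Cdk6. The first of the Ccnd3 windows held the FOXO core on the other strand, which reads TGTTTAC, with its first base at position -243 from the start. The Ccng2 window held CAAAACA at -16. Cdk2 held the E2F core at -140 and -10, read on the other strand as GCGGGAA, the first Cdkn2c window held it at -25, and Rbl2 held the CHR at -201. The remaining windows of Cdkn2c and Ccnd3 held none of the 4. A match describes the letters of the window and is neither a bound site nor a cause, and its absence covers these letters in this window alone.

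In CPM both D-type cyclins separated by library set, Ccnd2 narrowly, and neither passed the test of Cpd10 against DMSO. Ccnd2, which encodes cyclin D2 (chromosome 6, 127125162 to 127152193, minus strand), was at 574, 503 and 544 CPM with DMSO and at 565, 464 and 539 CPM with Cpd10. The means of 540 ± 35.2 and 523 ± 52.1 CPM gave a log2 fold change of -0.05 (SE 0.12), with an adjusted p of 0.954 in edgeR, and with the set as a term the value was 0.0054. Set 2 ran from 464 to 539 CPM and set 1 from 544 to 574 CPM, so the sets did not overlap in CPM. Scaled by exon length, as below, the sets did overlap, with DMSO C of set 1 at 156 and Cpd10 C of set 2 at 166. Ccnd3, which encodes cyclin D3 (chromosome 17, 47505051 to 47599691, plus strand), was at 65.0, 121 and 82.4 CPM with DMSO and at 78.7, 115 and 113 CPM with Cpd10. Set 2 lay above set 1, at 113 to 121 CPM against 65.0 to 82.4 CPM. Its means of 89.4 ± 28.6 and 102 ± 20.4 CPM gave 0.19 (SE 0.25, adjusted p 0.907 in edgeR), and with the set as a term the value was 0.0048 with an interval of -0.21 to 0.22. With the group alone it was 0.015 without DMSO A and 0.47 without DMSO B. Sets that do not overlap in this way were found for 3 of the 9 genes, Ccnd2, Ccnd3 and Cdk2, against 35.9% of all genes tested. Whether antisense reads enter Ccnd2 and Ccnd3 is uncertain, since each overlaps exons of a gene on the opposite strand, for Ccnd3 the gene Bysl, which was given 11411 counts over all libraries.

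Neither kinase passed the test. Cdk2 (chromosome 10, 128697939 to 128705031, minus strand) was at 138, 108 and 130.03 CPM with DMSO and at 145, 118 and 116 CPM with Cpd10. Set 2 lay below set 1 (108 to 118 CPM against 130.03 to 145 CPM), the log2 fold change was 0.0082 (SE 0.13, adjusted p 0.993 in edgeR), and with the set term it was 0.11 (adjusted p 0.552). Cdk6 (chromosome 5, 3341485 to 3531008, plus strand) was at 64.9, 43.0 and 41.3 CPM with DMSO and at 47.2, 32.1 and 41.2 CPM with Cpd10, where Cpd10 A lay above DMSO B and DMSO C and the groups overlapped. The means were 49.7 ± 13.1 and 40.2 ± 7.63 CPM, the fold was 0.808 with an interval of 0.572 to 1.14, and the log2 fold change of -0.31 (SE 0.21) had an adjusted p of 0.796 in edgeR. With the set as a term the Cdk6 value was -0.20 (adjusted p 0.705 in edgeR), and with the group alone but without DMSO A, the highest library, it was -0.065. Pmel, which overlaps Cdk2 on the other strand, was given 566 counts over all libraries.

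Rbl2 and Ccng2, which FOXO factors are known to activate elsewhere, did not pass the test in either direction. Rbl2, which encodes the pocket protein p130 (chromosome 8, 91070057 to 91123844, plus strand), was at 61.1, 66.4 and 71.7 CPM with DMSO and at 59.6, 72.7 and 68.4 CPM with Cpd10. The means of 66.4 ± 5.28 and 66.9 ± 6.67 CPM gave 0.0099 (SE 0.11), with an interval of -0.25 to 0.27 and an adjusted p of 0.989 in edgeR, and the set term moved it to -0.035 (adjusted p 0.913). The DMSO and Cpd10 ranges of Rbl2 overlapped almost fully. Ccng2, an unconventional cyclin linked to cell-cycle arrest (chromosome 5, 93267257 to 93276231, plus strand), was at 76.3, 79.7 and 79.9 CPM with DMSO and at 58.0, 86.3 and 78.0 CPM with Cpd10. The 3 DMSO libraries lay close together and the Cpd10 libraries lay on both sides of them, with Cpd10 A the lowest. The log2 fold change was -0.09 (SE 0.15, adjusted p 0.926 in edgeR), or -0.19 with the set term (adjusted p 0.444), and within set 1 and set 2 the differences were -0.43 and 0.04. Exons of Rbl2 overlap Aktip on the opposite strand, so its counts carry the same uncertainty as those of Ccnd2.

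To compare levels between genes, counts were divided by the merged exon length and scaled to TPM. Ccnd2 was the most abundant of the 9 on this per-length scale, at 167 ± 21.8 with DMSO and 161 ± 22.6 with Cpd10, followed with DMSO by Cdk2 at 58.7 ± 10.3, Cdkn1b at 58.3 ± 0.434, Ccng2 at 41.8 ± 2.22, Cdkn2c at 33.2 ± 7.55, Cdkn2d at 31.9 ± 5.64, Ccnd3 at 29.4 ± 8.67, Rbl2 at 25.4 ± 0.296 and Cdk6 at 10.5 ± 3.62. The neighbours Cdk2 and Cdkn1b, Cdkn2c and Cdkn2d, Cdkn2d and Ccnd3, and Ccnd3 and Rbl2 overlapped across the DMSO libraries. With Cpd10 the order was Ccnd2, Cdkn1b, Cdk2, Cdkn2d, Ccng2, Cdkn2c, Ccnd3, Rbl2 and Cdk6, and Cdkn1b was at 72.3 ± 2.80. There the neighbours Cdkn1b and Cdk2, Cdkn2d and Ccng2, Ccng2 and Cdkn2c, and Cdkn2c and Ccnd3 overlapped. The order depends on the length used. By the longest transcript Cdk2 was at 85.4 and Cdkn1b at 55.0 with Cpd10, and Cdkn1b ranked 4 in both groups. For Ccnd3 the merged exons span 8775 bases and the longest transcript 3858, and by the latter it ranked 3 in both groups, at 51.4 with DMSO. Within its family, Ccnd2 held 84.8% ± 4.89 of the per-length level of the 3 D-type cyclins with DMSO and 82.4% ± 4.12 with Cpd10. Ccnd1 was at 0.364 ± 0.0752 and 0.734 ± 0.415 CPM. Cdkn1b held 20.3% ± 7.71 and 22.0% ± 9.25 of the level of the 7 CDK inhibitors measured, and Cdkn1a, the gene of that sum with the highest SD, ran from 56.2 to 382 CPM across libraries.

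**Figure D3:**
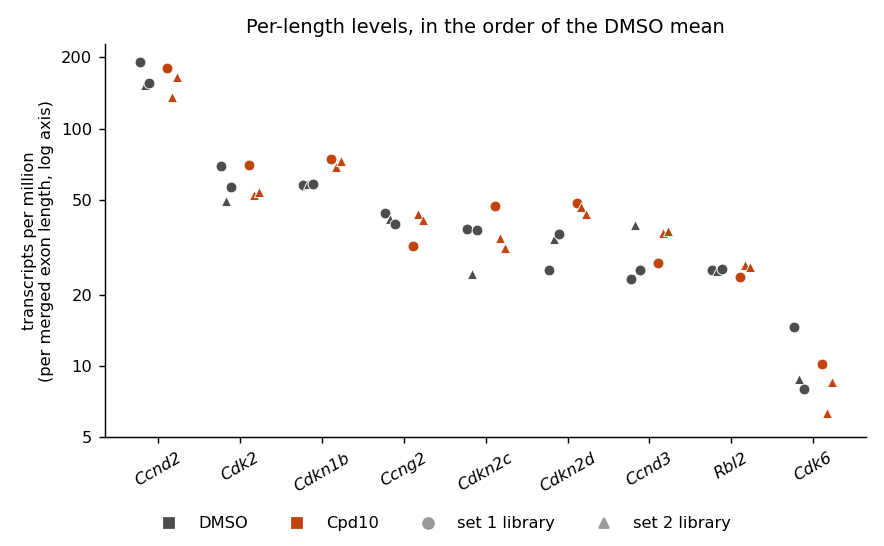
Per-length level of each of the 9 genes (TPM, by merged exon length), one point per library, on a log axis. Ccnd2 stands above the other 8 genes in every library and Cdk6 is the lowest.

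Ratios within a family remove what the paired genes share. Of 5 ratios, that of Cdk6 to Cdk4 was lower with Cpd10 in all 3 libraries than in any DMSO library, at -4.16 ± 0.28 with DMSO and -4.56 ± 0.27 with Cpd10 on a log2 scale (n = 3 each), a difference of -0.40. The exact two-sided permutation p was 0.1, the smallest that 3 against 3 libraries can give, and 0.5 after adjustment over the 5 ratios. Within set 1 and set 2 the differences were -0.32 and -0.29, and without DMSO A or Cpd10 B the difference was -0.24 or -0.25. Cdk4, the other kinase partner of D-type cyclins, was at 202 ± 15.5 and 217 ± 9.90 CPM. The ratio of Ccnd2 to Ccnd3 was 2.54 ± 0.55 and 2.27 ± 0.43 (exact permutation p 0.6), and the ratio of Cdkn2c to Cdkn2d was 0.04 ± 0.52 and -0.31 ± 0.24 (exact permutation p 0.4). The ratios of Rbl2 to Rbl1 and of Ccng2 to Ccng1 differed by -0.18 (exact permutation p 0.8) and -0.08 (exact permutation p 0.9). The adjusted values of these 4 ratios were all 0.9.

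**Figure D4:**
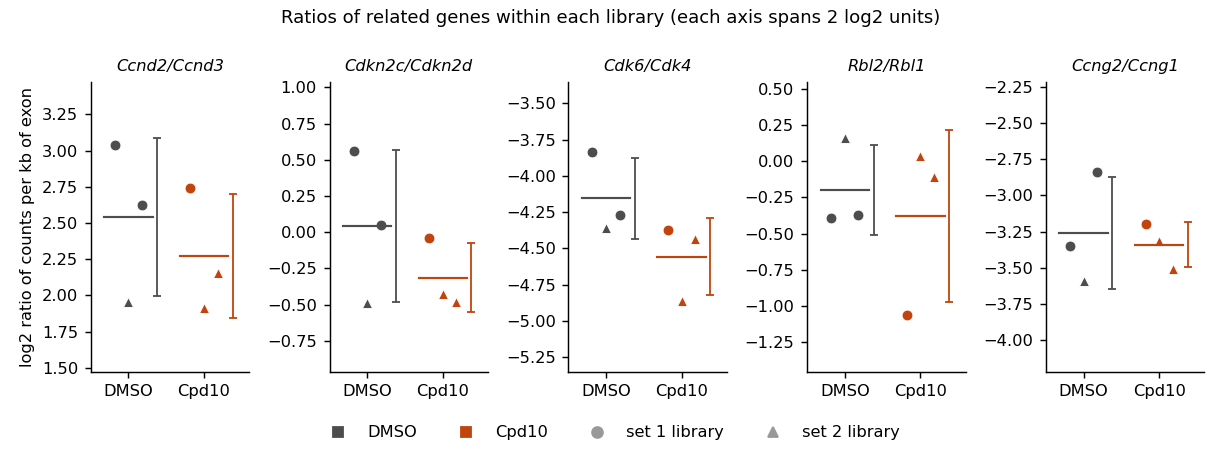
Log2 ratios of paired genes in each library, DMSO beside Cpd10, with a line at the mean, a bar of 1 SD to each side (n = 3) and the library set marked. The Cdk6 to Cdk4 ratio is lower in each Cpd10 library than in any DMSO library, and the other 4 ratios overlap between groups.

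The genes around the 9 were described by lists of pathway genes. None of the lists had a member called in the edgeR test with the group alone. The lists too were chosen with earlier results of these data known, so the shares called are descriptions. With the set term, 351 of all 15136 genes were called higher and 248 lower in edgeR. The other CDK inhibitors Cdkn1a, Cdkn1c, Cdkn2a and Cdkn2b had a median log2 fold change of -0.56, with 1 of 4 above 0, and of -0.87 with the set term. Cdkn1a, the p53 target that encodes p21, was at 207 ± 157 CPM with DMSO and 233 ± 154 CPM with Cpd10 and separated by library set, at 312 to 382 CPM in set 2 and 56.2 to 159 CPM in set 1. With the set as a term Cdkn2a was called lower, at -1.08 (adjusted p 0.0280 in edgeR), and it was called in 2 of the 6 fits that also left out a library. The 9 G1 and S cyclins and kinases had a median of 0.09 (0.06 with the set term), and Ccnd1, Ccne1, Ccna2 and Cdk4 had log2 fold changes of 1.00, -0.23, 0.28 and 0.11, of which Ccna2 was called with the set term at 0.45 (adjusted p 0.0100 in edgeR) and in 4 of the 6 fits that also left out a library.

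In the RB and E2F family of 12 genes the median was 0.06, and 0.10 with the set term. Rb1, the founding pocket protein gene, was at 98.3 ± 13.1 and 135 ± 41.4 CPM, with Cpd10 A at 183 CPM the highest library. Rb1 and Rbl1, which encodes p107, had log2 fold changes of 0.46 and 0.21. With the set term both were called, at 0.60 (adjusted p 0.00277) and 0.40 (adjusted p 0.0333) in edgeR. That was 2 of 12, against 2.32% of all genes called higher. They were called in 5 and 2 of the 6 fits that also left out a library. The E2F partner genes Tfdp1 and Tfdp2 were at 0.19 and -0.35. The MuvB core joins p130 to repress cell-cycle genes in resting cells and B-MYB (Mybl2) to activate them in dividing cells. Over 7 genes of this group, 1 of them the kinase gene Dyrk1a, whose product promotes assembly of the repressive complex, the median was -0.10, and 0.03 with the set term. Dyrk1a was at -0.16, Lin37 at -0.14, Rbbp4 at 0.12 and Mybl2 at 0.45 with the group alone. Mybl2 was called with the set term at 0.70 (adjusted p 0.0280 in edgeR) and in 2 of those 6 fits. The 9 genes of p27 and cyclin turnover had a median of 0.13, and 0.04 with the set term. Skp2, the ubiquitin ligase subunit that marks p27 for destruction, had an unadjusted p of 0.0313 at 0.42 (adjusted p 0.529 in edgeR), or 0.45 with the set term (adjusted p 0.143), while Fzr1 was at 0.18, Fbxo4 at 0.18 and Cks1b at 0.14. In the antiproliferative list of 9 genes Gadd45a and Gadd45b, FOXO and stress targets in other cells, were at -0.51 and -0.73. Their unadjusted p was 0.0292 and 0.0265 (adjusted p 0.517 and 0.501 in edgeR). With the set term they were at -0.60 and -0.47 (adjusted p 0.0851 and 0.0592 in edgeR). Gadd45g and Btg1 were at 0.63 and -0.39 with the group alone. The median of that list was -0.04, and -0.17 with the set term.

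**Figure D5:**
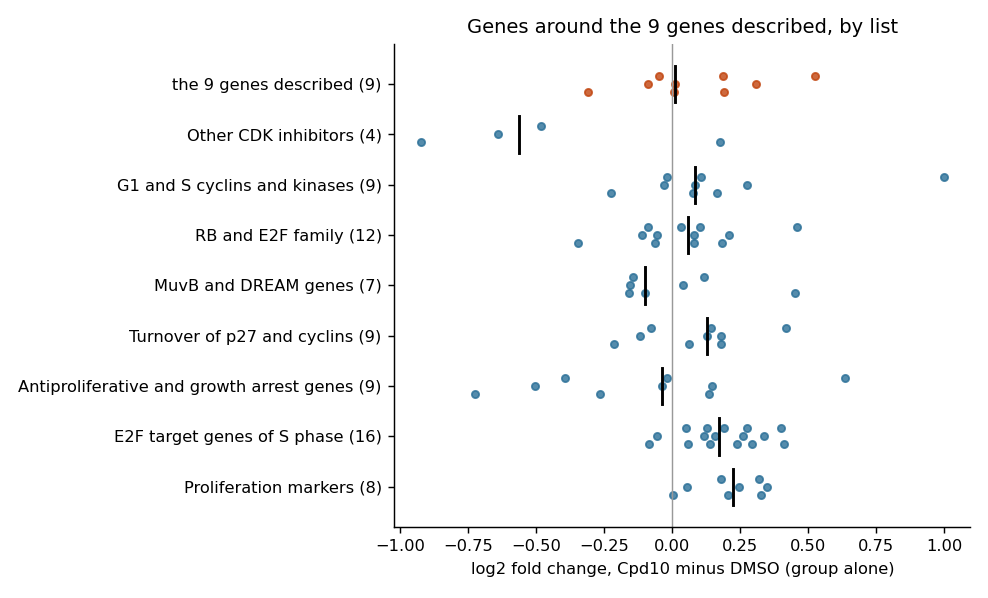
Log2 fold change (Cpd10 minus DMSO, group alone) of the genes of each pathway list and of the 9 genes described, a point per gene and a bar at the median, with the number of genes tested in brackets. The highest medians are those of the proliferation markers (0.22) and the E2F target genes (0.17), and that of the other CDK inhibitors is the lowest (-0.56).

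The E2F target genes of S phase, whose transcription the pocket proteins hold down, had a median of 0.17 with the group alone and of 0.32 with the set term, where all genes tested had a median of -0.01. With the group alone 0 of 16 were called, and with the set term 6 were called higher, against 2.32% of all genes in that fit: Mcm5 (0.40), Mcm7 (0.37), Pcna (0.37), Rrm1 (0.44), Rrm2 (0.55) and Pola1 (0.45). Tk1, thymidine kinase, was at 0.40 with the group alone (adjusted p 0.452 in edgeR) and 0.34 with the set term (adjusted p 0.102). Cpd10 A is the only Cpd10 library of set 1, so without it the comparison with the group alone is unbalanced between the sets. That median was then -0.03. The fit with the set term but without Cpd10 A rests on DMSO B against Cpd10 B and Cpd10 C. The one without DMSO B rests on DMSO A and DMSO C against Cpd10 A. With the set term 0 of 16 genes were called without Cpd10 A, where 95 of all 15773 genes were called higher. In the fits with the set term that left out a library, the lowest log2 fold changes of the 6 genes ran from 0.23 (Pola1) to 0.46 (Rrm2). With the set term, 1 was called without Cpd10 C, 2 without Cpd10 B, and 5 to 7 without a DMSO library. Of all genes, those fits called 151, 210 and 230 to 466 higher. Why the calls differed between these fits was not tested. The 8 proliferation markers had a median of 0.22 with the group alone and of 0.36 with the set term, and Ccnb1 (0.48), Cdk1 (0.40), Aurka (0.37) and Birc5 (0.40), 4 of 8, were called higher with the set term, where the same share of all genes applies. Without Cpd10 A the median with the group alone, unbalanced between the sets in the same way, was 0.07. With the set term 0 of 8 were called without Cpd10 A, Cpd10 B, Cpd10 C or DMSO B. The fit without DMSO A called 4 and that without DMSO C called 3. The counts over all genes in these fits are those given above. Plk1 was at 0.18 with the group alone and 0.25 with the set term. Mki67, a proliferation marker, was at 709 ± 172 and 711 ± 333 CPM. The part of the library Cpd10 A in these values was not tested. The T cell gene list summed to 39.0 to 50.04 CPM with DMSO and 22.0 to 26.9 CPM with Cpd10. Most of that was Lck (42.7 and 23.8 CPM). The fibroblast and endothelial list summed to 11.3 to 20.5 and 4.93 to 6.14 CPM, most of it Pecam1 (13.4 and 4.88 CPM). The plasma cell list summed to 756 to 2584 CPM with DMSO and 594 to 1182 CPM with Cpd10. Its gene Jchain was at 730, 407 and 2057 CPM in DMSO A, B and C and at 732, 262 and 224 CPM in Cpd10 A, B and C. The highest sum was that of DMSO C. Slamf7 of the same list was at 355 and 354 CPM. The part of these lists in the values of the 9 genes was not tested.

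The genes whose values followed each of the 9 most closely over the 6 libraries, by Pearson r of log2 CPM among 8497 genes, were Zfp748 (0.996) and R3hdm4 (0.995) for Cdkn1b, Utp3 (0.9898) and Slc35a2 (0.984) for Cdkn2d, and Pcif1 (0.995) and Cuta (0.992) for Cdkn2c. Those for the D-type cyclins were Zswim8 (0.981) and Sec61a2 (0.977) for Ccnd2, and Sil1 (0.998) and Pcyox1l (0.998) for Ccnd3. For the remaining genes they were Eif4enif1 (0.996) and Cnep1r1 (0.996) for Cdk2, Efl1 (0.979) and Nck2 (0.973) for Cdk6, Cd79a (0.985) and Phf7 (0.978) for Rbl2, and Arl14ep (0.989) and Zfp940 (0.983) for Ccng2. These are descriptions over 6 libraries that share the library sets, with no test. The number of genes with r above 0.9 ran from 52 for Rbl2 to 478 for Cdk2, and was 425 for Ccnd3. Cdk2 and Ccnd3 are among the 3 genes whose library sets did not overlap.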

How the data were processed

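Poly A RNA was measured in 6 libraries, 3 per group. The authors deposited unnormalised read counts per gene in 1 table. Per the submitters' processing notes, the tools were featureCounts 2.0.6, STAR 2.7.10a and DESeq2 and the build GRCm38 (mm10), and the strand setting of the counting was not given in the sources used here. Of 54838 identifiers, 54809 were found in GENCODE M21, which gave symbols, coordinates and exon lengths. In R 4.3.3, edgeR 4.0.16 was run with TMM, filterByExpr and robust quasi-likelihood fits, with the group as the only term, on 15136 genes. A gene was called at a Benjamini-Hochberg adjusted p under 0.05. The SE came from the log2 fold change and the F statistic. Per-length levels are TPM computed from the counts and merged exon lengths. The script was tested on simulated data. Alternatives were DESeq2 1.42.0, its size factors, library totals, no filter, the library set, the replicate block and leaving out each library. Leaving out a library together with the set term was added after seeing the data. Named were the 9 genes, up to 4 genes of smallest p in each pathway list, list genes called, ratio partners, and the 2 genes most like each of the 9 by Pearson r (mean CPM at least 10). The 9 genes and the lists were chosen with earlier results of these data known.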

Additional observations from a re-analysis of the deposited data

How the results depend on the processing

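Cdkn1b, Cdkn2d, Cdkn2c, Ccnd3 and Cdk6 kept the sign of their log2 fold change in the 12 alternatives run for each, and no alternative without the set term called any of the 9 genes in edgeR or DESeq2. Cdkn1b ran from 0.25 to 0.37, Cdkn2d from 0.35 to 0.68, Cdkn2c from 0.018 to 0.37, Ccnd3 from 0.0048 to 0.47 and Cdk6 from -0.43 to -0.065, so the values of the last 3 came near 0. With library totals alone Rbl2 was at -0.025 and Cdk2 at -0.026, where the median of all genes shifted by -0.03. With the library set as a term Ccnd2 was at 0.0054 and Rbl2 at -0.035. Leaving out each library in turn gave -0.10 to 0.031 for Ccnd2, -0.21 to 0.070 for Ccng2, -0.053 to 0.095 for Rbl2 and -0.095 to 0.087 for Cdk2. With the set term as well it gave -0.040 to 0.052 for Ccnd2, -0.071 to 0.095 for Ccnd3, -0.43 to 0.056 for Ccng2, -0.16 to 0.099 for Rbl2, and 0 to 2 of the 9 genes called. The cause of these changes was not tested.

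The count of all genes called depended on the fit: 56 with the group alone, 356 by DESeq2, 194 without the filter, 599 with the set term, and 0 to 100 when a library was left out. Deviations of same-lettered libraries had correlations of 0.31, 0.43 and -0.31, and DMSO C followed Cpd10 A best, at 0.46. Values were positive within a library set and negative across sets. Whether the letters pair the libraries beneath the sets cannot be told from them. With the replicate block, 49 of all genes and 0 of the 9 were called, and Cdkn1b was at 0.31 and Cdkn2d at 0.55. Per-length levels moved by more than 1 SD for 11 of 18 values when the longest transcript replaced merged exons. Within set 1 the Rbl2 to Rbl1 ratio differed by -0.68. Depth gave at least 569 counts for each of the 9 genes in each library, and its share in the error was not tested.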
